A study of Mus musculus with 8 samples.

Results

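The gene expression of undifferentiated bone marrow mesenchymal stem cells (MSCs) was compared between *Dnmt3l* knockout (KO) and wild type (WT) mice. MSCs are adherent stromal cells of the marrow that can give rise in culture to cells of bone, cartilage and fat. The genes described were those whose mean reached 1 RPKM (reads per kilobase of transcript and per unit of sequencing depth) over the 2 WT and 2 KO undifferentiated libraries. Of the 24346 genes in the deposited table, 11902 reached that mean. Left out were 12 genes listed at exactly 0 in both libraries of one genotype and at 20 RPKM or more in both of the other, such as *Actb* and *Col1a2*, and 369 further genes of small RNAs, which left 11521 genes. At the edge of this limit, *Krtcap3* was just inside with a mean of 1.0001 RPKM and *Cideb* just outside with 0.999 RPKM.

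All mice were of the C57BL/6 background. KO mice were homozygous for the tmEnls allele of *Dnmt3l*, came from crosses of heterozygous parents, and lacked the gene throughout life and in every tissue. WT mice were their *Dnmt3l*+/+ littermates of the same gender and age, and all were females of 8 to 16 weeks. MSCs were grown from the marrow and the minced bone of femur and tibia, depleted of cells carrying CD11b or CD45, and mixed from 3 mice per genotype. The undifferentiated cells were cultured in alphaMEM with fetal bovine serum without inducing agents and used at passage 4. A second pair of groups, differentiating WT and differentiating KO, had received dexamethasone, β-glycerophosphate and ascorbic acid 2-phosphate for 3 days of osteogenic induction. Each of the 4 groups had 2 RNA-seq libraries, and the sources used here do not state if both libraries of a group stem from separate cultures. The p-values below therefore measure the spread between libraries, which may be technical. This spread and the standard errors are pooled over all 8 libraries, the differentiating ones included.

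DNMT3L is a relative of the DNA methyltransferases that has no catalytic activity of its own. It is known for stimulating DNMT3A and DNMT3B in germ cells and early embryos, where it is required for maternal imprints and for silencing of transposons in male germ cells, and it is little expressed in most adult tissues. *Dnmt3l* itself (chr10:78041947-78063622, plus strand, mm10) was measured at 1.56 and 1.09 RPKM in the WT libraries and was listed at 0 in both KO libraries, where a count of 0 allows up to 0.0385 and 0.0372 RPKM (3 reads at the estimated depth). Its mean over the 4 libraries was below 1 RPKM, which kept it out of the genes described. According to the paper, the reads in WT MSCs mapped only to the later exons of the gene. It did not detect the canonical DNMT3L protein in MSCs, and did not exclude a shorter product.

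Depth was estimated from the steps between low values, with 204 bases first subtracted from each transcript length. In the 4 undifferentiated libraries 1 RPKM stood for 48.2 to 51.0 scaled reads per kb of the length that remained. On a transcript of median length it stood for about 153 to 161 reads. The 11 MSC markers that were checked (among them *Thy1*, *Ly6a*, *Pdgfra* and *Pdgfrb*) were all expressed, and their summed level was 1710 and 1740 RPKM in WT and 1820 and 1830 RPKM in KO. The leukocyte genes *Ptprc* (CD45) and *Itgam* (CD11b), the targets of the depletion, were at or below 0.139 RPKM in every library. The globins *Hba-a1* and *Hbb-b1* were listed at 0, which can be a failed estimate in these values. The erythroid enzyme *Alas2* was at 0.225 to 0.874 RPKM, and 17 endothelial markers summed to 4.12 to 4.97 RPKM. Other lists were higher: 14 muscle and pericyte markers summed to 50.9 to 66.2 RPKM, and 12 nerve and glia markers to 129 to 140 RPKM.

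The KO and WT libraries were separated by many small differences and few large ones. With limma on log2(RPKM + 0.1) and Benjamini-Hochberg adjustment over all 15342 genes fitted, 2014 of the 11521 genes were higher in KO (17.5%) and 2398 were lower (20.8%) at an adjusted p under 0.05. Differentially expressed genes (DEGs), which also had to differ by more than 2-fold, numbered 43 higher in KO (0.373%) and 88 lower (0.764%), so that 67.2% of the 131 DEGs were lower. The KO and WT values of all 131 DEGs did not overlap, as was the case for 9012 of the 11521 genes (78.2%). At a 1.5-fold limit there were 343 higher and 350 lower genes. Without WT replicate 1 there were 66 higher DEGs, and with a pseudocount of 1 in place of 0.1 there were 15 higher and 58 lower. Leaving out any one undifferentiated library left 785 to 1100 genes higher and 1133 to 1469 lower at an adjusted p under 0.05, the fewest higher without KO replicate 1 and the fewest lower without WT replicate 2. Over all genes fitted the same calls were 14.7% higher and 17.5% lower, and the DEGs 0.613% and 1.09%. The shares of the 11521 genes, 17.5% higher and 20.8% lower, are the background for the count of every gene list below. The median log2 fold change was −0.01, and the median level was 2.65 RPKM for higher DEGs, 5.41 RPKM for lower DEGs and 11.2 RPKM for all 11521 genes.

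**Figure D1:**
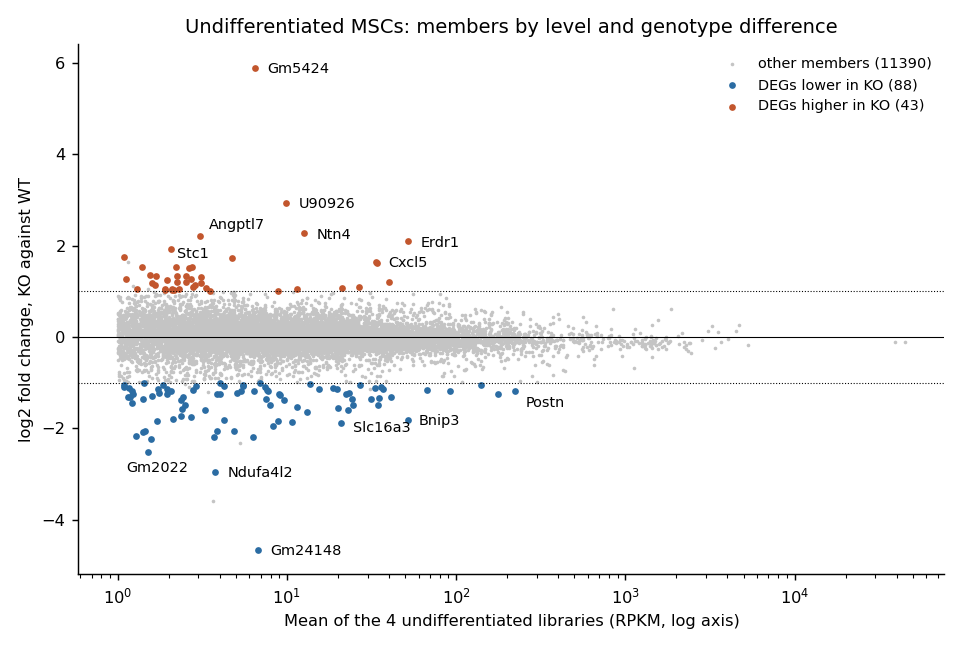
Each point is 1 of the 11521 genes, with its mean level over the 4 undifferentiated libraries on a log axis (RPKM) and its log2 fold change of KO against WT; blue and orange points are the 88 lower and 43 higher DEGs and dotted lines mark 2-fold. Most genes lie close to 0, and the DEGs lie mainly at levels below 100 RPKM.

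Hypoxia and glycolysis genes were more often lower than higher in KO. Cells sense oxygen through the prolyl hydroxylases of the EGLN family, which mark the transcription factor HIF-1α for degradation when oxygen is present, and stable HIF-1α induces glucose transport, glycolysis, lactate export and mitophagy. Of 40 such genes, 27 were lower in KO (67.5%), 2 were higher and 6 of the lower ones were DEGs, with a median log2 fold change of −0.39. The leading genes were *Slc16a3*, which encodes the lactate exporter MCT4, *Pdk1*, whose kinase keeps pyruvate out of the mitochondria, *Bnip3*, a mitophagy receptor, and *Pfkl*, the liver-type phosphofructokinase. Their RefSeq promoter windows (GRCm38.p6, which is mm10; 250 bases before to 50 after the annotated start, 5′ to 3′ on the gene's strand) are shown because these 4 genes carry the largest differences of the list for which a window was at hand. Capitals mark ACGTG or GCGTG on either strand, the core that HIF factors are known to bind; the first of these letters also lies within the E-box CACGTG.
Slc16a3, chr11:120948817-120949116, plus strand: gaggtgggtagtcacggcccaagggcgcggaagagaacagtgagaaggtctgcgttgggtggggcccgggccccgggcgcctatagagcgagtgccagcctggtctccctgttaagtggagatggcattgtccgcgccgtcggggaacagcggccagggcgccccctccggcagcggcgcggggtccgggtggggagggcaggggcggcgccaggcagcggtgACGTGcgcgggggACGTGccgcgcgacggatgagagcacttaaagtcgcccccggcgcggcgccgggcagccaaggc
Pdk1, chr2:71872974-71873273, plus strand: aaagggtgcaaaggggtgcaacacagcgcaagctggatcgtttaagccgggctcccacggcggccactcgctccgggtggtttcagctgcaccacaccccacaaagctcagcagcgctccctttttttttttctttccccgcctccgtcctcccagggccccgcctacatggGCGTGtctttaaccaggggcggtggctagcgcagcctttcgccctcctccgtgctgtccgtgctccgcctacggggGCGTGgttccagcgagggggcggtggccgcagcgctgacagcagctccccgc
Bnip3, chr7:138909457-138909756, minus strand: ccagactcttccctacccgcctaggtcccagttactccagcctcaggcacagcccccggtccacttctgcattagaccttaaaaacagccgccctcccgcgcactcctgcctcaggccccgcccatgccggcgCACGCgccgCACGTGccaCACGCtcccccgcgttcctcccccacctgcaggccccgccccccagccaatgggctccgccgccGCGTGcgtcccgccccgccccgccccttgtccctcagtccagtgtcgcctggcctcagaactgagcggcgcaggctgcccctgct
Pfkl, chr10:78009758-78010057, minus strand: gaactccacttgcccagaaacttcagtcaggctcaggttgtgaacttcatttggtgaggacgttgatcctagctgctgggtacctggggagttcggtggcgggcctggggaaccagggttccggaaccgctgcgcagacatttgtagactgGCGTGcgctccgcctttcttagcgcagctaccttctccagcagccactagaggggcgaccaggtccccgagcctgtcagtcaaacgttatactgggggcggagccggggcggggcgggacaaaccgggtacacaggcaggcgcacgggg

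The core was found at 2 places in the windows of *Slc16a3* (27 and 14 bases before the start) and *Pdk1* (78 and 2 bases before), at 1 place in that of *Pfkl* (99 bases before) and at 5 places in that of *Bnip3*, where 2 of the matches were the 2 strands of one overlapping stretch. It is a common sequence. It was found in 65.1% of the 8751 windows of the genes described, in 29 of 36 windows of the hypoxia and glycolysis list (80.6%) and in 19 of 24 windows of its lower members (79.2%). Among CpG-rich windows alone (observed over expected CpG of at least 0.6) the shares were 72.6%, 83.9% and 81.8%. A match describes the letters of a window and is not evidence of binding.

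*Slc16a3* was measured at 32.1 and 33.2 RPKM in the WT libraries and at 8.84 and 8.79 RPKM in the KO libraries, a log2 fold change of −1.88 ± 0.11 (SE, adjusted p = 0.000347). *Pdk1* was at 16.8 and 17.2 RPKM in WT and at 4.43 and 4.72 RPKM in KO, which was 3.71-fold lower (log2 fold change −1.87 ± 0.06, adjusted p = 4.74e-05). *Bnip3* was at 80.7 and 80.4 RPKM in WT and at 22.7 and 23.2 RPKM in KO (−1.81 ± 0.06, adjusted p = 0.000102). In each of these 3 genes the libraries of a genotype lay close together and the genotypes did not overlap, as in 78.2% of the 11521 genes. *Pfkl* was at 58.2 and 59.3 RPKM in WT and 23.5 and 23.4 RPKM in KO (−1.32 ± 0.05, adjusted p = 0.000115); it lies 0.06 Mb from *Dnmt3l* on chromosome 10, and the part of that position in its level was not tested. *Ankrd37*, a known HIF target, was at 2.67 and 2.81 RPKM in WT and 1.18 and 1.18 RPKM in KO (log2 fold change −1.15). *Ndrg1*, which is induced by low oxygen in many cells, was at 5.89 and 5.67 RPKM in WT and 2.51 and 2.89 RPKM in KO (−1.07).

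Genes of glucose uptake and of lactate production were among the lower ones. The glucose transporter gene *Slc2a1* was lower by a log2 fold change of −0.61, and the enzymes *Aldoa* (773 and 804 RPKM in WT, 506 and 522 RPKM in KO), *Pgk1* (524 and 539.8 and 324 and 320.3 RPKM) and *Ldha* (749.9 and 783 and 546 and 546 RPKM) fell by 0.62, 0.72 and 0.49 on the log2 scale. Also lower were *Hif1a* itself (−0.39), *Egln1* (−0.70), the mitochondrial gene *Higd1a* (−0.97) and the endothelial growth factor *Vegfa*, at 83.2 and 84.2 RPKM in WT and 56.1 and 58.6 RPKM in KO (−0.54). The only 2 higher genes of the list belong to the oxidative branch of the pentose phosphate pathway, which yields NADPH: *G6pdx* was at 32.999 and 33.2 RPKM in WT and 50.1 and 50.2 RPKM in KO (0.60), and *Pgd* rose by 0.56. Outside the list, further lower DEGs were *Ndufa4l2*, a paralog of a cytochrome oxidase subunit known to be induced by low oxygen, at 7.06 and 6.41 RPKM in WT and 0.573 and 1.06 RPKM in KO (chr10:127514967-127517154; −2.95 ± 0.25, adjusted p = 0.000969), and *Mgarp*, a mitochondrial protein also induced by low oxygen, at 2.46 and 2.83 RPKM in WT and 0.384 and 0.608 RPKM in KO (−2.22). *Fam162a*, a mitochondrial gene likewise induced by low oxygen, was at 183 and 195 RPKM in WT and 93.04 and 90.2 RPKM in KO (−1.04). The genes named from outside the list were picked among the lower DEGs. How other genes induced by low oxygen went was not counted, so these do not stand for all of them.

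**Figure D2:**
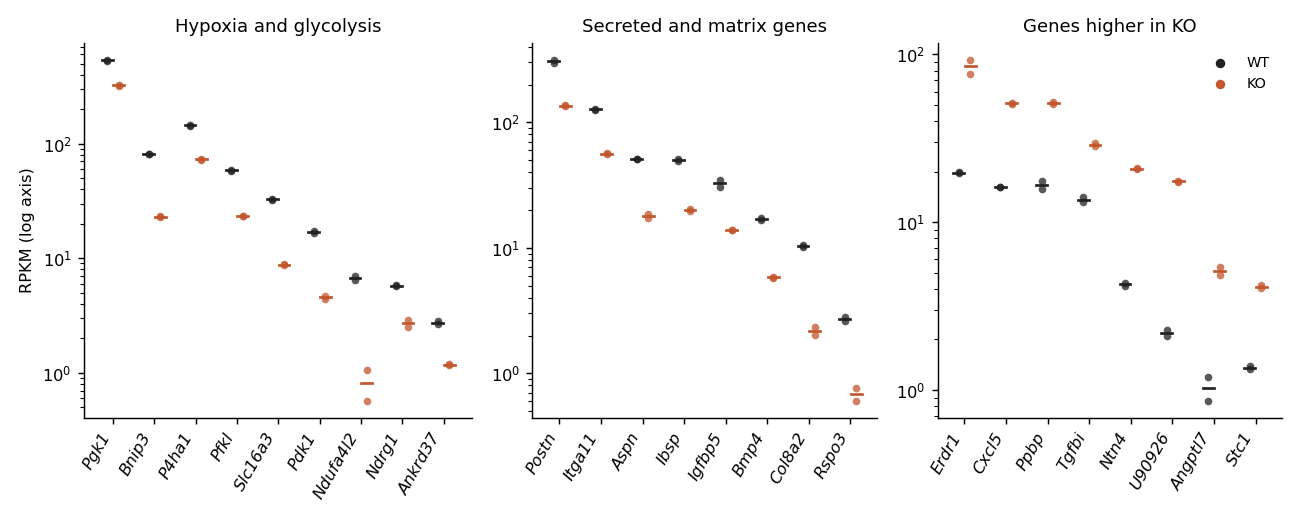
Level of named genes (RPKM, log axis) in the 2 WT (black) and 2 KO (orange) undifferentiated libraries; points are libraries and bars their mean. In every gene shown the WT and KO libraries do not overlap, as is the case for 78.2% of the 11521 genes. The spread within a genotype is widest for the low values of *Ndufa4l2* and *Angptl7*.

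Genes of the unfolded protein and ATF4 response were also more often lower than higher. ATF4 is translated when the kinases of the integrated stress response are active and drives amino acid supply genes and a set of feedback regulators. Of 43 genes of the unfolded protein and ATF4 response, 19 were lower (44.2%), 1 was higher and 2 were DEGs, with a median of −0.16; the 19 became 12 without WT replicate 2 and 12 without KO replicate 1. The pseudokinase gene *Trib3* was at 36.6 and 36.5 RPKM in WT and 17.4 and 17.5 RPKM in KO (−1.06 ± 0.12, adjusted p = 0.00261), and the transcription factor gene *Atf3* was at 2.58 and 2.24 and 1.15 and 0.932 RPKM (−1.14). *Ddit3*, encoding CHOP, was at 114 and 118 RPKM in WT and 71.2 and 67.8 RPKM in KO (−0.74). *Chac1*, a glutathione-degrading enzyme, fell by 0.61 on the log2 scale and the oxidase *Ero1l* by 0.85, while *Atf4* itself differed by −0.25 (adjusted p = 0.0407). The 1 higher gene was *Creld2*, a chaperone-like protein, at 36.97 and 40.1 RPKM in WT and 53.2 and 49.6 RPKM in KO (0.42). *Vldlr*, a lipoprotein receptor of this list, was at 8.76 and 9.05 RPKM in WT and 4.36 and 4.64 RPKM in KO (−0.97).

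Lysosomal genes were more often lower as well, by small amounts. Of 52 lysosomal enzymes, membrane proteins and proton pump subunits, 36 were lower (69.2%), 1 was higher and none was a DEG, and the median was −0.23; without WT replicate 2, 23 were lower. The cysteine protease *Ctsl* was at 405 and 428 RPKM in WT and 276 and 276 RPKM in KO (−0.59 ± 0.04, adjusted p = 0.000506). *Ctsd*, an aspartic protease, was at 585 and 610.4 and 448 and 452 RPKM (−0.41), and the lysosomal membrane proteins *Lamp1* and *Lamp2* fell by 0.39 and 0.38 on the log2 scale. The largest differences were in *Ctsf* (−0.66) and *Ctso* (−0.64), and the 1 higher gene was the pump subunit *Atp6v0a1* (0.19). The 4 WT and KO values of the proteases named here did not overlap between genotypes, as in 78.2% of the 11521 genes.

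Among genes of DNA replication, histones and mitosis, those that passed the test were nearly all higher in KO. Of 53 replication and G1/S genes, 35 were higher (66%) and none was lower, with a median of 0.44. Without one undifferentiated library the count was 20 (WT replicate 1 or 2) or 18 (KO replicate 1 or 2). The ribonucleotide reductase subunit *Rrm2* was at 58.01 and 61.2 RPKM in WT and 102 and 97.3 RPKM in KO (0.74 ± 0.09, adjusted p = 0.00249). *Orc1*, of the origin recognition complex, rose by 0.68, the helicase subunit *Mcm5* was at 9.37 and 9.98 and 14.5 and 15.2 RPKM (0.61), and thymidine kinase *Tk1* was at 20.98 and 21.1 and 33.03 and 33.3 RPKM (0.65). Of 62 histone genes, 32 were higher (51.6%) and 3 lower, with a median of 0.50, and without one undifferentiated library 13 to 21 were higher, the lowest without KO replicate 2. The linker histone *Hist1h1e* was at 52.2 and 54.5 RPKM in WT and 89.1 and 92.2 RPKM in KO (0.76). The replication-dependent histone genes are near-identical copies, so reads may be divided among them, and their single values are uncertain.

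Of 50 mitotic genes, 16 were higher (32%), none was lower, 49 were on the higher side and the median was 0.44. *Ube2c*, the ubiquitin-conjugating enzyme of the anaphase-promoting complex, was at 28.3 and 28.8 RPKM in WT and 45.3 and 46.2 RPKM in KO (0.68 ± 0.05, adjusted p = 0.000841), separase *Espl1* was at 1.51 and 1.603 and 2.66 and 2.83 RPKM (0.78), *Mki67* was at 12.8 and 12.3 and 19.04 and 19.1 RPKM (0.60) and *Cdk1* was at 22.6 and 23.2 and 30.7 and 31.2 RPKM (0.43). The count of 16 moved with the libraries in the fit, and why was not tested: 49 of the 50 were higher when only the 4 undifferentiated libraries were fitted, 48 when either differentiating KO library was left out, and 3 when any undifferentiated library was left out. Among the inhibitors of the cycle, *Cdkn2a* was at 169.9 and 181 RPKM in WT and 111 and 112 RPKM in KO (−0.65 ± 0.05, adjusted p = 0.000627). *Cdkn1a* was at 79.8 and 79.3 RPKM in WT and 86.01 and 83.8 RPKM in KO (0.09) and did not pass (adjusted p = 0.0842). *Gadd45a*, a p53 target induced by DNA damage, was at 21.8 and 20.8 and 9.34 and 10.01 RPKM (−1.13), the 1 DEG of 41 genes of CDK inhibitors, D cyclins and p53 targets, of which 9 were higher and 15 lower.

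**Figure D3:**
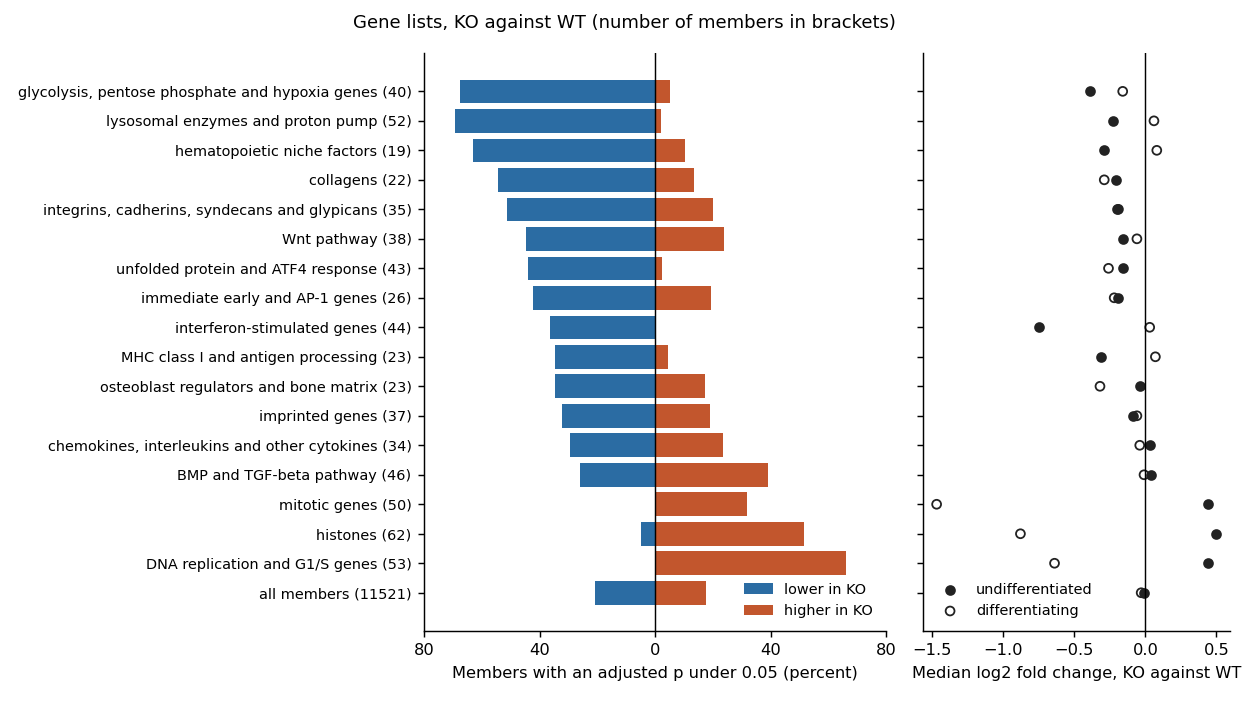
Left, the share of each gene list that was lower (blue) or higher (orange) in undifferentiated KO MSCs at an adjusted p under 0.05, with all 11521 genes at the bottom (20.8% lower and 17.5% higher). Right, the median log2 fold change of KO against WT of each list in undifferentiated (filled) and differentiating (open) MSCs; the medians of the replication, histone and mitotic lists are above 0 in the first and below 0 in the second.

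Interferon-stimulated genes, which are induced through a complex that includes STAT2 and IRF9, had the lowest median of the groups. Of 44 such genes, 16 were lower (36.4%), 4 of them as DEGs, none was higher, 41 were on the lower side, and the median log2 fold change was −0.75. *Ifi44* was at 4.83 and 5.18 RPKM in WT and 1.49 and 1.698 RPKM in KO (−1.60 ± 0.44, adjusted p = 0.0382). Its standard error also holds the spread of the differentiating libraries, at 5.81 and 9.64 RPKM in WT and 8.08 and 3.19 RPKM in KO. *Ifi27*, the most abundant of the genes that fell, was at 134 and 150.3 RPKM in WT and 83.6 and 91.4 RPKM in KO (−0.70), and the transcription factors *Stat2* and *Irf9* fell by 0.63 and 0.48. *Rtp4*, a trafficking chaperone of this group, was at 3.77 and 3.94 RPKM in WT and 1.604 and 1.75 RPKM in KO (−1.16). The count moved with the libraries in the fit, and why was not tested. With the 4 undifferentiated libraries alone 31 of the 44 were lower, 29 were lower without either differentiating KO library, and 3 without any one undifferentiated library. A pseudocount of 1, no variance trend and a robust prior gave 9 or 10, and a pseudocount of 0.01 gave 17.

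Genes of antigen presentation and complement that passed the test were also more often lower than higher. Of 23 genes of MHC class I presentation, 8 were lower (34.8%) and 1 was higher, with a median of −0.31; the 8 became 14 without either differentiating KO library, 5 without WT replicate 2 or KO replicate 2 and 4 without KO replicate 1. The immunoproteasome subunits *Psmb8* and *Psmb9*, which are also interferon-stimulated and counted in both lists, were at 11.4 and 12.6 and 1.59 and 1.68 RPKM in WT and 7.79 and 7.57 and 0.757 and 0.636 RPKM in KO. The class I heavy chain *H2-K1* was at 37.6 and 37.97 RPKM in WT and 25.6 and 25.3 RPKM in KO (−0.57 ± 0.07, adjusted p = 0.00267) and *H2-D1* fell by 0.44; these genes are close paralogs, between which reads may be divided. *B2m*, the light chain, was at 342 and 367 RPKM in WT and 275 and 296 RPKM in KO (−0.31) and did not pass (adjusted p = 0.0539). Of 11 complement genes, 6 were lower (2 to 4 without one undifferentiated library) and 3 higher, with a median of −0.46: *C2* was at 9.699 and 10.5 RPKM in WT and 4.704 and 4.62 RPKM in KO (−1.10), its inhibitor *Serping1* was at 18.8 and 19.7 and 10.8 and 12.6 RPKM (−0.72), and the lectin pathway protease *Masp1* rose by 0.59.

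The summed level of 36 leukocyte and macrophage genes was 33.6 and 34.9 RPKM in WT and 16.4 and 15.8 RPKM in KO, with 4 of the 36 at 0 in all 4 libraries. Much of this difference lies in *Lyz2*, given below. Only 7 of the 36 reached the mean of 1 RPKM over the 4 libraries, of which 4 were lower, 2 higher and 1 did not pass. The higher *Cd14* was at 1.23 and 1.47 RPKM in WT and 2.59 and 2.18 RPKM in KO (0.78). The macrophage receptor *Csf1r*, also higher, was at 1.53 and 1.43 and 1.89 and 1.90 RPKM (0.34). The lower *Lyz2*, encoding lysozyme, was at 12.8 and 13.4 RPKM in WT and 3.43 and 3.19 RPKM in KO (−1.96 ± 0.09, adjusted p = 0.000194). *Lyz1* was at 2.34 and 2.48 and 0.469 and 0.531 RPKM (−2.06), and because it is a near-identical neighbour of *Lyz2*, reads of the 2 genes cannot be told apart with certainty. *C1qa* was at 0.741 and 1.24 RPKM in WT and at 0.0708 and 0.0688 RPKM in KO, and *Ptprc* was at 0.127 and 0.0979 RPKM in WT and at 0.0698 and 0.0243 RPKM in KO. In bulk RNA, fewer cells of a type and less RNA per cell cannot be told apart, and the part of these markers in the interferon, MHC and complement differences was not tested.

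The extracellular matrix of KO MSCs differed in both directions, with collagens mainly lower. Of 22 collagen genes, 12 were lower (54.5%), 3 were higher and the median was −0.21. *Col8a2*, a short-chain collagen, was the 1 DEG among them, at 10.2 and 10.5 RPKM in WT and 2.02 and 2.34 RPKM in KO (−2.20 ± 0.07, adjusted p = 7.22e-05). Of the abundant fibrillar collagens, *Col3a1* was at 1652 and 1672 RPKM in WT and 1192 and 1253 RPKM in KO (−0.44) and *Col5a2* was at 1084 and 1113 and 808 and 828 RPKM (−0.43). *Col1a1* went the other way, at 735 and 597 RPKM in WT and 985 and 1048 RPKM in KO (0.62 ± 0.13, adjusted p = 0.0153), with WT libraries that were further apart than those of the other collagens named. Its partner chain gene *Col1a2* was listed at 0 in both WT libraries and could not be compared. Of 25 collagen processing enzymes, 9 were lower and 3 higher: the prolyl 4-hydroxylase subunit *P4ha1*, also a hypoxia-induced gene, was at 143 and 146 RPKM in WT and 72.3 and 73.3 RPKM in KO (−0.99), and the lysyl hydroxylase *Plod2* fell by 0.55.

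Among matrix glycoproteins, 14 of 47 were lower and 12 higher. *Postn*, encoding periostin of the periosteum and of collagen fibrils, was at 299 and 315 RPKM in WT and 135 and 137 RPKM in KO (−1.18 ± 0.05, adjusted p = 0.000194), and the laminin chain *Lama1* was at 3.46 and 3.27 and 0.921 and 0.867 RPKM (−1.80). *Tgfbi*, a TGF-β-induced matrix protein, rose from 14.1 and 13.1 RPKM in WT to 28.4 and 29.4 RPKM in KO (1.08), and *Thbs4*, a thrombospondin of tendon, from 0.861 and 0.968 to 2.51 and 2.41 RPKM (1.34). Small leucine-rich proteoglycans were likewise divided, with 5 of 12 lower and 3 higher. *Aspn*, an inhibitor of TGF-β in cartilage, was at 50.8 and 50.7 RPKM in WT and 17.1 and 18.7 RPKM in KO (−1.50), *Omd* was at 30.5 and 32.2 and 15.1 and 16.5 RPKM (−0.98), and *Lum* was at 1.03 and 0.833 and 2.15 and 2.34 RPKM (1.19).

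Cell adhesion receptors were mainly lower, with 18 of 35 integrins, cadherins, syndecans and glypicans lower (51.4%; 10 to 12 without one undifferentiated library) and 7 higher. *Itga11*, the collagen-binding integrin of mesenchymal cells, had the smallest p among the named genes, at 128 and 127 RPKM in WT and 56.7 and 55.997 RPKM in KO (−1.17 ± 0.03, adjusted p = 1.18e-05). *Cdh11*, the mesenchymal cadherin, was at 125 and 126 RPKM in WT and 68.7 and 69.1 RPKM in KO (−0.86), and *Itgbl1* was at 12.2 and 13.6 and 4.84 and 5.83 RPKM (−1.26). Of 34 matrix proteases and inhibitors, 15 were lower (8 or 9 without any one undifferentiated library) and 6 higher. The collagenase *Mmp13* was at 44.7 and 46.5 RPKM in WT and 19.1 and 23.01 RPKM in KO (−1.12) and the inhibitor *Timp3* was at 1376 and 1389 and 883 and 850.4 RPKM (−0.67).

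Transcripts of bone sialoprotein and alkaline phosphatase were lower in KO, whereas those of the regulators *Runx2* and *Sp7* did not pass the test. *Ibsp*, encoding bone sialoprotein, was at 49.5 and 51.3 RPKM in WT and 20.2 and 19.7 RPKM in KO (−1.33 ± 0.10, adjusted p = 0.000726). *Alpl*, the alkaline phosphatase required for mineralisation, was at 44.6 and 44.2 RPKM in WT and 21.8 and 23.5 RPKM in KO (−0.97 ± 0.05, adjusted p = 0.000327). The genotypes did not overlap in either, as in 78.2% of the 11521 genes. The master regulator *Runx2* was at 5.07 and 4.5003 RPKM in WT and 4.74 and 5.29 RPKM in KO, values that overlapped (0.07 ± 0.09, adjusted p = 0.627), and *Sp7*, encoding osterix, was at 7.28 and 7.84 and 7.76 and 8.63 RPKM (0.11, adjusted p = 0.452). Of 23 osteoblast genes, 8 were lower (34.8%; 3 or 4 without any one undifferentiated library) and 4 higher, with a median of −0.04. Among the higher ones were *Fgf18* (1.21), a DEG, and *Col1a1* (0.62), so the list as a whole was divided. The adipogenic regulators *Pparg* (0.09, adjusted p = 0.235) and *Cebpa* (0.17, adjusted p = 0.0756) did not pass. *Cebpb* was at 61.97 and 64.2 RPKM in WT and 77.9 and 77.2 RPKM in KO (0.30). Of 15 adipogenic genes, 3 were higher and 3 lower.

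MSC surface and progenitor markers were also divided, with 11 of 28 higher and 12 lower; without one undifferentiated library 7 or 8 were higher and 5 or 6 lower. *Pdgfra* was at 20.4 and 20.7 RPKM in WT and 32.7 and 32.6 RPKM in KO (0.67 ± 0.05, adjusted p = 0.000725), and *Lepr*, a marker of marrow stromal cells, rose by 0.39. *Cd200*, an immunoregulatory surface protein, was at 3.09 and 3.89 RPKM in WT and 1.31 and 1.22 RPKM in KO (−1.38). *Thy1* was at 62.1 and 62.6 and 64.7 and 64.9 RPKM (0.06) and did not pass (adjusted p = 0.442).

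Genes of the BMP and TGF-β pathway went both ways. BMPs bind receptor complexes that phosphorylate SMAD1, SMAD5 and SMAD9, antagonists such as gremlin 1 capture the ligands outside the cell, and the ID genes are direct targets. *Bmp4* (chr14:46383520-46390669, minus strand) was at 17.4 and 16.6 RPKM in WT and 5.73 and 5.91 RPKM in KO (−1.53 ± 0.04, adjusted p = 2.23e-05), and the ligand *Bmp5* was at 4.72 and 4.51 and 2.398 and 2.43 RPKM (−0.91). The antagonist *Grem1* was at 36.8 and 38.5 RPKM in WT and 54.97 and 57.1 RPKM in KO (0.57). The inhibitory *Smad6* rose by 0.52, and the receptor-activated *Smad9* was at 1.37 and 1.31 and 2.91 and 2.78 RPKM (1.04). The targets *Id1*, *Id2* and *Id3* rose by 0.58, 0.55 and 0.31 on the log2 scale, *Id1* from 50.7 and 56.8 RPKM in WT to 79.02 and 81.7 RPKM in KO. Of the TGF-β receptors, *Tgfbr2* was at 59.3 and 55.1 RPKM in WT and 35.7 and 34.9 RPKM in KO (−0.69) and the coreceptor *Tgfbr3* at 11.5 and 10.96 and 19.2 and 19.2 RPKM (0.77). Of 46 genes of the BMP and TGF-β pathway, 18 were higher (39.1%) and 12 lower (26.1%); the 18 became 10 without WT replicate 1 or KO replicate 1 and 9 without KO replicate 2.

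Wnt pathway genes were more often lower, with 17 of 38 lower (44.7%) and 9 higher (23.7%). R-spondins amplify Wnt signals by sparing the Frizzled receptors from turnover. *Rspo3* was at 2.82 and 2.59 RPKM in WT and 0.766 and 0.606 RPKM in KO (−1.84 ± 0.11, adjusted p = 0.000349), and *Rspo2* was at 18.2 and 18.04 and 11.2 and 11.6 RPKM (−0.67). The 2 genes that Wnt proteins need for lipid modification and export were lower: *Porcn* was at 12.4 and 13.1 RPKM in WT and 5.25 and 5.37 RPKM in KO (−1.24 ± 0.05, adjusted p = 0.000128), and *Wls* was at 267 and 273 and 195 and 192 RPKM (−0.48). The ligand *Wnt11* rose by 0.65, the R-spondin receptor *Lgr6* by 0.87 and the secreted antagonist *Sfrp1* by 0.51.

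Of 17 IGF pathway genes, 7 were lower and 4 higher, and of 20 FGF pathway genes 7 were lower and 6 higher. *Igf1* was at 1.77 and 1.696 RPKM in WT and 0.698 and 0.589 RPKM in KO (−1.30 ± 0.08, adjusted p = 0.000475). The IGF-binding protein *Igfbp5*, abundant in bone, was at 34.997 and 30.8 RPKM in WT and 13.9 and 13.9 RPKM in KO (−1.24), and *Igfbp2* at 352 and 372 and 203 and 199.9 RPKM (−0.85). *Stc1*, a stanniocalcin that inhibits the protease PAPP-A, which cleaves IGF-binding proteins, rose from 1.33 and 1.38 to 4.06 and 4.205 RPKM (1.54). The ligands *Fgf18* and *Fgf2* were at 1.33 and 1.299 and 15.03 and 16.98 RPKM in WT and rose to 3.04 and 3.31 and 26.8 and 24.8 RPKM in KO, and the feedback inhibitor *Spry1* was at 26.8 and 27.6 RPKM in WT and 11.9 and 12.5 RPKM in KO (−1.15 ± 0.04, adjusted p = 5.58e-05).

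**Figure D4:**
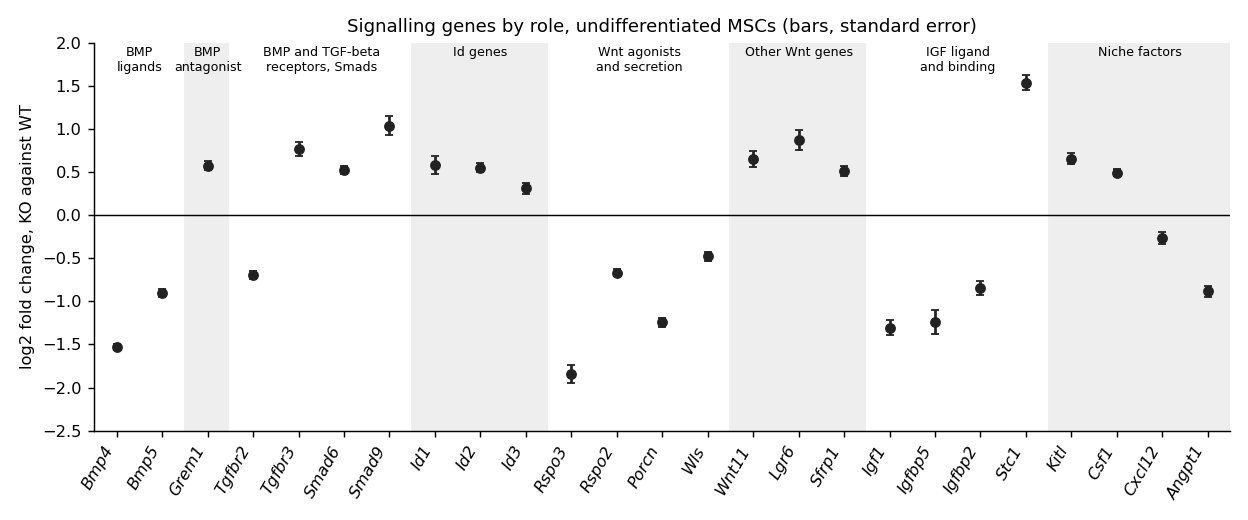
Log2 fold change of KO against WT in undifferentiated MSCs (points) with its standard error (bars) for 25 signalling genes, in shaded blocks by role. *Bmp4* and *Bmp5* lie below 0 and the antagonist *Grem1* and the 3 *Id* genes above 0. All 25 genes passed the test, and many were named because they passed or after their values were seen.

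Factors by which marrow stroma supports blood stem cells were mainly lower, with 12 of 19 lower (63.2%) and 2 higher, though 7 were lower without WT replicate 2 and 6 without KO replicate 1 or 2. *Cxcl12*, the chemokine that retains blood stem cells, was at 75.6 and 78.3 RPKM in WT and 63.2 and 64.9 RPKM in KO (−0.26), *Angpt1* was at 9.58 and 8.69 and 5.01 and 4.79 RPKM (−0.88), and the Notch ligand *Jag1* fell by 0.72. The 2 higher genes were *Kitl*, encoding stem cell factor, at 4.399 and 3.95 RPKM in WT and 6.79 and 6.45 RPKM in KO (0.65), and *Csf1*, the macrophage growth factor, at 334 and 329 and 474 and 459 RPKM (0.49).

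A cluster of neutrophil-attracting chemokines on chromosome 5 was higher. *Cxcl5* (chr5:90759360-90761624) was at 16.2 and 16.2 RPKM in WT and 51.1 and 50.9 RPKM in KO (1.65 ± 0.05, adjusted p = 4.74e-05). Its neighbour *Ppbp* was at 15.7 and 17.5 RPKM in WT and 52.3 and 50.9 RPKM in KO (1.63), and *Cxcl3* was at 1.57 and 1.24 and 3.59 and 3.76 RPKM (1.33). The leukaemia inhibitory factor *Lif* and its receptor *Lifr* were both lower: *Lif* was at 8.84 and 8.94 RPKM in WT and 3.96 and 3.78 RPKM in KO (−1.18), and *Lifr* was at 21.02 and 19.1 and 6.31 and 6.41 RPKM (−1.64 ± 0.07, adjusted p = 0.000138). *Ackr4*, a chemokine scavenging receptor, fell from 29.1 and 30.9 to 9.63 and 10.6 RPKM (−1.56), and *Il18* from 7.22 and 7.62 to 3.38 and 3.71 RPKM (−1.05). In the whole list of 34 cytokines 10 were lower and 8 higher, and of 30 cytokine and chemokine receptors 12 were higher and 6 lower.

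Of 26 immediate early genes, which respond within minutes to serum and stress, 11 were lower (42.3%), 4 of them as DEGs, and 5 were higher (3 without KO replicate 2). *Fos* was at 13.3 and 14.5 RPKM in WT and 3.53 and 4.04 RPKM in KO (−1.85 ± 0.08, adjusted p = 0.000162), and *Egr2* was at 6.69 and 6.61 and 1.82 and 1.78 RPKM (−1.83 ± 0.07, adjusted p = 0.000105). *Fosl1* went the other way, from 1.88 and 1.78 to 2.82 and 2.804 RPKM (0.59).

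Several of the largest differences were in genes of other kinds. *U90926*, a gene of little known function, was at 2.11 and 2.27 RPKM in WT and 17.6 and 17.4 RPKM in KO, 8.001-fold higher (2.94 ± 0.11, adjusted p = 0.000116). *Ntn4*, a laminin-related netrin of basement membranes (chr10:93640681-93747207), was at 4.14 and 4.37 RPKM in WT and 21 and 20.7 RPKM in KO (2.27 ± 0.07, adjusted p = 4.74e-05). *Gm8580* lies inside it on the opposite strand and went the other way, from 5.65 and 6.603 to 0.917 and 1.73 RPKM. *Angptl7*, an angiopoietin-like secreted protein, was at 0.864 and 1.19 RPKM in WT and 5.37 and 4.83 RPKM in KO (2.22), and *Erdr1* was at 19.8 and 19.6 and 76.6 and 92.9 RPKM (2.09). *Serpinb2*, an inhibitor of plasminogen activators, rose from 2.05 and 2.26 to 7.49 and 7.18 RPKM (1.72). *Ch25h*, which makes 25-hydroxycholesterol, was at 7.63 and 8.12 RPKM in WT and 1.82 and 1.79 RPKM in KO (−2.06 ± 0.08, adjusted p = 0.000136), and *Tspan8*, a tetraspanin, was at 2.08 and 2.22 and 0.352 and 0.447 RPKM (−2.18). *Cck*, which encodes the peptide hormone cholecystokinin, was at 0.877 and 0.720 RPKM in WT and 3.11 and 3.52 RPKM in KO (1.93). The largest fold changes of all were in genes whose reads are uncertain: the pseudogene *Gm5424* was at 0.236 and 0.00421 RPKM in WT and 19.3 and 6.24 RPKM in KO (5.89 ± 1.27), with KO libraries that were far apart, and the small nucleolar RNA gene *Gm24148* was at 11.4 and 13.1 RPKM in WT and at 0 and 2.26 RPKM in KO (−4.67 ± 1.33). *Gm2022*, one of a family of near-identical copies, was at 2.61 and 2.65 and 0.359 and 0.398 RPKM (−2.51).

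Genes of DNA methylation include the partners of DNMT3L. *Dnmt3a* was at 2.75 and 2.68 RPKM in WT and 2.81 and 2.61 RPKM in KO, values that overlapped (−0.00 ± 0.07, adjusted p = 0.99). *Dnmt1*, the maintenance methyltransferase of replicating cells, was at 15.3 and 14.7 RPKM in WT and 21.4 and 21.3 RPKM in KO (0.51 ± 0.05, adjusted p = 0.00136). *Dnmt3b* was below the level limit, at 0.342 and 0.342 RPKM in WT and 0.544 and 0.486 RPKM in KO, and passed the test (0.48 ± 0.12, adjusted p = 0.03), though not without any one undifferentiated library (adjusted p up to 0.113). *Tet2*, which oxidises methylcytosine, fell by 0.31. Of 44 genes of DNA methylation and repressive chromatin, 13 were higher (29.5%) and 8 lower (18.2%); without one undifferentiated library 1 to 5 were higher and 2 to 5 lower. Imprinted genes, expressed from 1 parental copy, were higher in 7 and lower in 12 of 37, and without one undifferentiated library in 1 to 4 and 7 to 9. *Mest*, expressed from the paternal copy, was at 5.85 and 6.66 RPKM in WT and 1.48 and 1.36 RPKM in KO (−2.06 ± 0.11, adjusted p = 0.000307), *H19* was at 4.43 and 4.804 and 2.42 and 2.88 RPKM (−0.78), and the antisense transcript *Kcnq1ot1* was at 1.43 and 1.03 and 1.99 and 2.204 RPKM (0.73). No allele was distinguished, so these are total levels. Of 20 *Hox* genes, 4 were higher and 3 lower.

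The promoters of the DEGs held fewer CpGs than those of the genes described as a whole. Of 8751 RefSeq windows, 76.1% were CpG-rich, against 14 of 27 windows of higher DEGs (51.9%) and 24 of 64 windows of lower DEGs (37.5%), and the median number of CpGs was 22, 17 and 11.5. DEGs have lower levels than the rest, and the part of expression level in this difference was not tested. By position, 16 of the 535 genes on chromosome 10, where *Dnmt3l* lies, were DEGs (2.99%), against 107 of 10542 genes elsewhere (1.01%). At an adjusted p under 0.05 with no fold limit the shares were closer, 40.9% on chromosome 10 and 38.3% elsewhere. The share of DEGs was 3.37% within 20 Mb of *Dnmt3l* (9 DEGs), 3.33% at 20 to 45 Mb (4 DEGs) and 2.03% beyond (3 DEGs). Among the 16 were *Pfkl*, *Igf1*, *Ntn4*, *Egr2*, *Lum*, *Tspan8*, *Lyz2*, *Rspo3* and *Ndufa4l2*. The part of position in these levels was not tested.

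The DEGs of undifferentiated cells were also measured after 3 days of osteogenic induction. They were chosen by the size of their difference in undifferentiated cells, so a smaller value in the other state follows in part from the choice, and the counts below are a description. The 2 comparisons use separate libraries but share the fit. Differentiating KO MSCs had 2222 genes higher (19.3%) and 3290 lower (28.6%) than differentiating WT MSCs, with DEGs at 0.512% and 2.01%. Of the 43 higher DEGs of undifferentiated cells, 30 had the same sign and 16 also passed with it, 2 passed with the opposite sign, and the median log2 fold change was 1.26 in undifferentiated and 0.21 in differentiating cells. Of the 88 lower DEGs, 64 had the same sign and 51 also passed with it, 13 passed with the opposite sign, and the medians were −1.27 and −0.38. The difference between the 2 states was tested by an interaction contrast, which called 187 genes upward (1.62%) and 438 downward (3.8%), meaning a log2 difference beyond 1 and an adjusted p under 0.05. It called 22 of the higher DEGs and 46 of the lower ones.

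**Figure D5:**
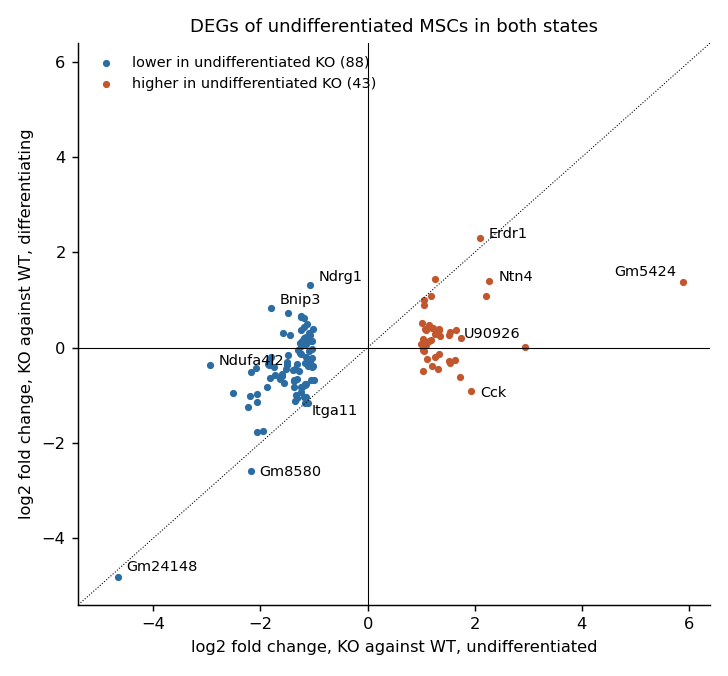
Log2 fold change of KO against WT in undifferentiated MSCs (horizontal axis) and in differentiating MSCs (vertical axis) for the 88 lower (blue) and 43 higher (orange) DEGs of undifferentiated MSCs; the dotted line marks equal values. Most points lie between the dotted line and 0, *Itga11* lies close to the line, and *Bnip3* and *Ndrg1* lie on the other side of 0.

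Single genes differed in how they went on. *Itga11* was lower by −1.17 in undifferentiated and −1.16 in differentiating cells, *Gm8580* by −2.19 and −2.58, and *Erdr1* was higher by 2.09 and 2.29. *Bnip3* went from −1.81 to 0.84 and *Ndrg1* from −1.07 to 1.31, each with an adjusted p under 0.05 in both states. *U90926* was at 0.02 in differentiating cells, where it did not pass. The medians of the proliferation lists turned: that of the 50 mitotic genes was 0.44 in undifferentiated and −1.47 in differentiating cells, where 49 were lower, and the medians of the replication list were 0.44 and −0.64. The 44 interferon-stimulated genes, with a median of −0.75 in undifferentiated cells, had one of 0.03 in differentiating cells, with 4 higher and 1 lower. The lysosomal list went from 36 lower and 1 higher to 7 lower and 21 higher, and the hypoxia and glycolysis list from 27 lower and 2 higher to 19 lower and 10 higher.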

How the data were processed

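RNA from passage 4 MSCs was depleted of ribosomal RNA and made into stranded single-end libraries, 2 in each of 4 groups. The authors aligned the reads to mm10 with TopHat2 (2.1.0), and the deposited values are RPKM per gene from Cuffdiff (Cufflinks 2.2.1), scaled across libraries by the authors; raw counts were not analysed here. Of 3931 low values checked, 73.5% came out as whole reads (tolerance 0.05), so counts were not recovered. Columns of the authors' own fold changes and p-values were not used, and 0 columns were without a sample.

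The 15342 genes whose 8-library mean reached 0.1 RPKM were fitted on log2(RPKM + 0.1) with limma (3.58.1, R 4.3.3, trended prior), with 4 residual and 1.98 prior degrees of freedom and Benjamini-Hochberg adjustment over all of them. Fold changes are on that scale, which understates those of low genes. The test was checked on simulated data with independent noise of the spread seen between these libraries. That check cannot show whether this spread is technical. Tables and figures used Python 3.11.15, pandas 2.3.3, numpy 2.4.6 and matplotlib 3.10.9.

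The genes described and the gene lists were chosen with earlier results of these data known. Genes were named by a rule: *Dnmt3l*, the 15 DEGs of largest fold change in each direction, up to 2 members of each list in each direction, and a short list of regulators. Not every gene so selected is reported. *Nqo1*, *Txnrd1*, *Aldoa*, *Ankrd37*, *Atf4*, *B2m*, *Bnip3*, *Cdh11*, *Cdk1*, *Chac1*, *Col3a1*, *Col5a2*, *Ctsd*, *Ctsl*, *Ddit3*, *Egln1*, *Ero1l*, *Fam162a*, *Grem1*, *H2-D1*, *H2-K1*, *Hif1a*, *Higd1a*, *Hist1h1e*, *Id1*, *Id2*, *Id3*, *Ifi27*, *Igfbp2*, *Irf9*, *Lamp1*, *Lamp2*, *Ldha*, *Mcm5*, *Ndrg1*, *Pfkl*, *Pgk1*, *Plod2*, *Rspo2*, *Sfrp1*, *Slc2a1*, *Smad6*, *Stat2*, *Tgfbr2*, *Tk1*, *Vegfa*, *Vldlr* and *Wls* were added after their values were seen.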

Additional observations from a re-analysis of the deposited data

Results flagged for a closer look

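The effect of the genotype in differentiating MSCs minus that in undifferentiated MSCs was tested for each gene by the interaction contrast in limma. For 53 of 161 named genes checked it differed by more than 1 on the log2 scale with an adjusted p under 0.05. The difference was upward in 33 and downward in 20, and in 33 the effects of the 2 states had opposite signs. Genes selected by the rule but outside the 161 are not counted, such as *Hist1h3g* (−3.03) and *Csf1r* (−1.09). Many of these genes were named because their difference in undifferentiated cells was large. A cause of these differences was not tested.

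The named hypoxia and glycolysis genes with such a difference went upward. *Bnip3* had a log2 fold change of KO against WT of −1.81 in undifferentiated and 0.84 in differentiating MSCs, a difference of 2.65 (adjusted p = 9.12e-05). The other differences were *Ndufa4l2* 2.59, *Ndrg1* 2.39, *Pdk1* 1.51, *Ankrd37* 1.22, *Higd1a* 1.11 and *Slc16a3* 1.05, together with *Cox6a2* 1.65 for the muscle-type cytochrome oxidase subunit and *Vldlr* 1.64 for the lipoprotein receptor.

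Those of the cell cycle went downward, except the DNA damage gene *Gadd45a* at 1.62. *Mki67* was at 0.60 in undifferentiated and −1.68 in differentiating MSCs, a difference of −2.28 (adjusted p = 0.00144). The differences of the others were *Mcm5* −2.05, *Tk1* −2.05, *Ube2c* −1.87, *Rrm2* −1.78, *Orc1* −1.76, *Espl1* −1.51 and *Cdk1* −1.37.

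Immune genes went both ways. The complement inhibitor *Serping1* was at −0.72 in undifferentiated and 1.28 in differentiating MSCs, a difference of 2.00 (adjusted p = 0.000939), and upward differences were also found for *C2* 1.41, *Psmb9* 1.35, *Il18* 1.18 and *Ch25h* 1.09. The chemokines *Ppbp* −1.90 and *Cxcl5* −1.28 differed downward.

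Matrix and adhesion genes with upward differences were *Lama1* 1.61, *Itgbl1* 1.36, *Col8a2* 1.18, *Omd* 1.17, *Aspn* 1.13 and *Tspan8* 1.66, and the lysosomal proteases *Ctsf* 1.22 and *Ctso* 1.13 did likewise. *Col1a1*, by contrast, was at 0.62 in undifferentiated and −0.82 in differentiating MSCs, a difference of −1.43 (adjusted p = 0.00252), and the protease inhibitor *Serpinb2* −2.34 and the osteoblast regulator *Sp7* −1.10 also differed downward.

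Among signalling genes the differences were *Igfbp5* 1.61, *Rspo3* 1.47, *Igf1* 1.25, *Angpt1* 1.19, *Porcn* 1.11 and *Bmp4* 1.08 upward and *Stc1* −1.20, *Id1* −1.13 and *Lgr6* −1.06 downward. The immediate early genes *Fos* 1.56 and *Egr2* 1.18 differed upward and *Fosl1* −1.16 downward. The imprinted gene *H19* was at −0.78 in undifferentiated and 0.63 in differentiating MSCs, a difference of 1.41 (adjusted p = 0.00284). *U90926* had the largest difference of the 53 genes, at 2.94 in undifferentiated and 0.02 in differentiating MSCs, a difference of −2.92 (adjusted p = 0.000382). The others were *Cck* −2.84 and *Angptl7* −1.14 downward and *Gm2022* 1.57 upward.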

How the results depend on the processing

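In all, 22 alternatives were tried: other pseudocounts, filters, scalings, variance settings, fold limits and level limits, a replicate block, a fit of the 4 undifferentiated libraries alone, and the omission of each library. The counts of 43 higher and 88 lower DEGs became 15 and 58 with a pseudocount of 1, 343 and 350 at a fold limit of 1.5, and 2014 and 2398 with no fold limit. A level limit of 0.5 RPKM gave 56 and 113 and one of 2 RPKM gave 32 and 66. The other alternatives that kept every library gave 33 to 50 higher and 84 to 100 lower DEGs. Leaving out each library in turn gave 38 to 66 higher and 83 to 98 lower DEGs, and 785 to 2396 higher and 1133 to 2732 lower genes at an adjusted p under 0.05. Over these omissions the higher counts ranged from 18 to 45 for replication genes, 3 to 48 for mitotic genes, 13 to 43 for histones, 6 to 10 for Wnt, 9 to 19 for BMP and TGF-β and 3 to 7 for immediate early genes. The lower counts ranged from 21 to 28 for hypoxia and glycolysis, 12 to 20 for the unfolded protein response, 23 to 37 for lysosomal, 3 to 29 for interferon-stimulated, 4 to 14 for MHC class I, 8 to 12 for collagen, 6 to 12 for niche, 15 to 17 for Wnt, 8 to 13 for BMP and TGF-β and 9 to 13 for immediate early genes. With the 4 undifferentiated libraries alone, 49 mitotic and 8 immediate early genes were higher and 31 interferon-stimulated genes were lower. With a pseudocount of 1, 28 mitotic genes were higher and 10 interferon-stimulated genes lower, and the latter numbered 10 when all genes above 0 were fitted, 9 with no variance trend and 10 with a robust prior. Of 40 further counts of 5 or more genes in other lists, 33 moved by over 1.5 times without some undifferentiated library, always to fewer genes, and 6 under an alternative that kept all libraries. The cause of these shifts was not tested, but each omission leaves one group with 1 library, which is then assumed to vary like the others.

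Same-numbered libraries did not deviate together: the correlations of the deviations of replicate 1 from the group means were −0.09 to 0.03 between groups. All genes fitted counted alike, low ones with few reads among them. The correlations therefore cannot settle whether same-numbered libraries were paired. With a replicate block there were 43 higher and 84 lower DEGs and 1579 higher and 1935 lower genes at an adjusted p under 0.05. The block left 10 mitotic genes higher and 6 interferon-stimulated genes lower.

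Of 161 named genes checked, 153 passed the test, against 17.5% higher and 20.8% lower of the 11521 genes. Many were named because they passed or after their values were seen, so the 153 follow in part from the choice. None of the 153 reversed, 137 passed under every alternative that kept all libraries, and 122 passed without each library. The other 31 missed the threshold without at least one library, with adjusted p-values up to 0.191: *Atf4*, *Atp6v0a1*, *Cck*, *Cdk1*, *Chac1*, *Col1a1*, *Col5a2*, *Creld2*, *Cxcl12*, *Dnmt3b*, *Gm24148*, *Gm5424*, *Gpx3*, *H19*, *H2-D1*, *Id1*, *Id3*, *Ifi44*, *Irf9*, *Kcnq1ot1*, *Ldha*, *Lepr*, *Mcm5*, *Mki67*, *Orc1*, *Psmb8*, *Rtp4*, *Serping1*, *Stat2*, *Tet2* and *Tk1*. Of the genes that did not pass, *Dnmt3a* ranged from −0.05 to 0.05 without one library (0.01 without WT replicate 1 and 0.05 without KO replicate 2) and *Runx2* from −0.02 to 0.15 (−0.02 without WT replicate 2 and −0.01 without KO replicate 2). Depth limits the low genes: with 2 libraries a group, a value such as 0.0243 RPKM of *Ptprc* rests on a handful of reads.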

Other observations

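Antioxidant and xenobiotic genes were divided in undifferentiated KO MSCs, with 15 of 59 higher, 11 lower and 3 DEGs, all higher. *Nqo1*, a quinone reductase and target of the transcription factor NRF2, was at 108 and 116 RPKM in WT and 172 and 166 RPKM in KO (log2 fold change 0.60), and the thioredoxin reductase *Txnrd1* was at 101 and 103 and 160.5 and 151 RPKM (0.61). The DEG *Ahrr*, repressor of the aryl hydrocarbon receptor, was at 1.41 and 1.69 RPKM in WT and 4.095 and 3.602 RPKM in KO (1.26 ± 0.11). The secreted peroxidase *Gpx3* was at 78.8 and 77.2 RPKM in WT and 51.5 and 51.1 RPKM in KO (−0.60). Of 86 genes of the respiratory chain and ATP synthase, 9 were lower and 3 higher, with a median of −0.04. The largest differences were in 2 subunits of cytochrome oxidase known from muscle: *Cox6a2* was at 2.41 and 2.27 RPKM in WT and 0.364 and 0.620 RPKM in KO (−2.08) and *Cox7a1* at 4.63 and 3.84 and 1.91 and 2.48 RPKM (−0.92). Of 81 ribosomal protein genes, 13 were lower, none was higher and 75 were on the lower side, with a median of −0.13; without one undifferentiated library 1 to 5 were lower, the fewest without KO replicate 2.

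Of 36 genes of sterol and fatty acid synthesis, 6 were higher (16.7%) and 2 lower (5.56%), against 17.5% and 20.8% of the 11521 genes. The desaturase *Scd1* was at 15.5 and 15.8 RPKM in WT and 22.7 and 23.4 RPKM in KO (0.56). Of 40 contractile and SRF or YAP target genes, 8 were higher and 6 lower, with *Zyx*, encoding the focal adhesion protein zyxin, at 58.2 and 55.6 RPKM in WT and 86.8 and 86.6 RPKM in KO (0.61). Of 21 clock and glucocorticoid target genes, 8 were lower and 3 higher, and *Bhlhe40*, a clock repressor also induced by low oxygen, was at 28.2 and 28.3 and 15.4 and 16.1 RPKM (−0.84). Among 22 angiogenic and PDGF genes 9 were lower and 7 higher, with *Angpt4* at 39.4 and 40.9 RPKM in WT and 20.8 and 20.4 RPKM in KO (−0.96). Of 41 guidance genes, 11 were lower (26.8%) and 8 higher (19.5%). The ephrin receptor *Epha3* was at 5.08 and 5.68 and 2.74 and 2.53 RPKM and *Epha1* at 2.93 and 2.65 and 5.77 and 5.41 RPKM (0.98). Of 16 retinoic acid genes, 5 were higher and 5 lower.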
